A study of Mus musculus with 35 samples.

Results

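RNA levels of 9 genes of TGF-β family signaling were followed across 35 RNA-seq libraries from mouse embryonic fibroblasts. The genes were the ligands Tgfb1, Tgfb2, Tgfb3, Inhba and Bmp4, the receptor Tgfbr1, the TGF-β activator Thbs1 and the intracellular inhibitors Smad7 and Skil. They were listed by name, as 9 of the 24421 genes in the count files, with earlier results of these data known, so how many of them were called is a description. The parental cells, in all groups and controls alike, were immortalized MEFs (iMEFs) of genotype Nelfb flox/-, with a floxed and a null allele of Nelfb, grown in DMEM with 10% FBS. Nelfb encodes NELFB, a subunit of the negative elongation factor NELF that holds RNA polymerase II near promoters. In 20 libraries, cell populations that carried an empty lentiviral vector (EV), WT NELFB, MT194, MT486 or DMT, which joins both mutants, were harvested at day 7 after adenovirus, either Ad-Cre (Ad-Cre-GFP in the labels), which removes the floxed allele, or Ad-GFP, with 2 replicates in each of 10 groups. The study describes MT194 and MT486 as alanine substitutions that lose binding to NELFA/NELFC and to NELFE. The other 15 libraries were stable clones isolated after Ad-Cre, 3 each with WT, MT194, MT486, WT(N48) or Δ-C60, a C-terminal truncation. The labels give pLenti as the vector of the WT, MT194 and MT486 clones and pBabe as that of the WT(N48) and Δ-C60 clones, so vector and construct cannot be told apart between these sets. The constructs encoded flag-tagged mouse NELFB, and each clone library came from 1 isolated clone, so the spread within a clone group includes differences between clones. Libraries held 17969149 to 29080007 reads counted on genes, and all 9 genes passed the filter on low counts in the populations and in the clones. In these bulk samples, fewer cells with a transcript and less RNA per cell cannot be told apart.

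TGF-β ligands are secreted in a latent complex, are released by integrins, proteases or thrombospondin-1, and bind a pair of receptor kinases, of which TGFBR1 phosphorylates SMAD2 and SMAD3. These then enter the nucleus with SMAD4 and switch on targets that include their own inhibitors, SMAD7 and SnoN (the product of Skil). BMPs use related receptors and SMAD1, SMAD5 and SMAD9, and activins such as the dimer of the Inhba product act through SMAD2 and SMAD3. In fibroblasts, TGF-β is known for inducing matrix genes and the contractile genes of myofibroblasts.

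The labels were checked first on Nelfb itself, with levels given as CPM, the reads of a gene scaled to library size after TMM normalization. Nelfb reads came from the endogenous gene and, where the coding sequence of a construct was counted, from the construct. In EV, Nelfb was at 46.1 and 39.5 CPM with Ad-GFP and at 7.97 and 5.46 CPM with Ad-Cre, and it fell by 2.67 on the log2 scale (SE 0.22, edgeR quasi-likelihood test, Benjamini-Hochberg adjusted p = 2.53e-05). The Ad-Cre libraries of the other constructs held between 60.5 and 208 CPM, above both EV-Cre libraries. Mean Nelfb with Ad-Cre was 68.2 CPM in WT, 111.2 in MT194, 122.0 in MT486 and 188.5 in DMT. With Ad-GFP it was 90.1, 68.1, 85.7 and 67.6 CPM in the same order. The mutants thus differed from WT-Cre in Nelfb level as well as in sequence, and the part of this level in the comparisons was not tested. Among the clones, 10.3 and 15.5 CPM of Nelfb were found in the libraries labelled WT clone 1 and 3, against 109 CPM in WT clone 2. These levels went against their label, and the values named against the WT clones are therefore also given without these 2 libraries. That leaves 1 WT clone, whose spread is taken from the other groups, so these are given as values with no call. Of 14 fibroblast markers, 13 were at 1 CPM or more on average in the populations, with Thy1 below, and 12 in the clones, with Thy1 and Lum below. All 6 endothelial markers were below 1 CPM, as were 7 of 8 epithelial markers, with the exception of Krt19. Of 6 macrophage and blood markers, 3 reached 1 CPM in the populations, the most abundant being Cd68 at 3.24 CPM, while Ptprc, Adgre1 and Itgam were below 1 CPM. The sum of these 6 was 6.10 and 9.26 CPM in EV-GFP and 9.42 and 14.2 CPM in EV-Cre, and its part in the results was not tested.

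With Ad-GFP, Tgfb2 was the ligand with the highest level per transcript length, and Inhba had the lowest level of the 9 genes in each of the 5 constructs. In EV-GFP, mean RPKM, the reads scaled to library size and to the length of the exons, was 64.5 for Tgfb2, 54.5 for Thbs1, 39.5 for Tgfb3 and 26.7 for Tgfbr1. Bmp4 followed at 12.6 RPKM, Tgfb1 at 6.45, Smad7 at 5.70, Skil at 3.34 and Inhba at 1.98. Neighbors in this order whose 2 values overlapped were Tgfb2 and Thbs1, Tgfb3 and Tgfbr1, and Tgfb1 and Smad7. In EV-Cre, Thbs1 stood first, at a mean of 309 RPKM, and Tgfb1 last, at 5.21 RPKM. With the longest transcript as the length in place of all exons, the order in EV-GFP was the same, and in EV-Cre Inhba and not Tgfb1 was last. Under Ad-GFP, 0 of the 9 genes were called between EV and any of the 4 constructs (edgeR), where log2 differences ran from -0.60 to 0.35 and 0, 0, 1 and 0 of 13805 genes were called for WT, MT194, MT486 and DMT (0%, 0%, 0.00724% and 0%). At an unadjusted p under 0.05, 0, 0, 0 and 1 of the 9 passed, against 84, 276, 252 and 175 of all genes, and DESeq2 called 0 of the 9 in each.

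The 250 bases before the annotated start of 2 members are shown, Inhba as a gene that rose with Ad-Cre in EV and Tgfb2 as a ligand that was not called there. They are RefSeq sequences of GRCm38.p6, printed 5′ to 3′ on the gene's strand. Inhba lies at chr13:16011851-16031621 (plus strand) in GENCODE's GRCm38 annotation, and its upstream window is chr13:16011601-16011850. Tgfb2 lies at chr1:186622792-186705989 (minus strand), with the window chr1:186705990-186706239. Capitals mark CAGAC or its reverse complement GTCTG, the core of SMAD binding elements, and TGANTCA, which contains the AP-1 motif, was searched as well.
Inhba: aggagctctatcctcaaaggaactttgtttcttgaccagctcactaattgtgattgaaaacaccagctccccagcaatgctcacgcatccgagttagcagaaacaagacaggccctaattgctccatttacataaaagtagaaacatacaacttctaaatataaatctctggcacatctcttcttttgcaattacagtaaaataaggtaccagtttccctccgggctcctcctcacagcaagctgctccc
Tgfb2: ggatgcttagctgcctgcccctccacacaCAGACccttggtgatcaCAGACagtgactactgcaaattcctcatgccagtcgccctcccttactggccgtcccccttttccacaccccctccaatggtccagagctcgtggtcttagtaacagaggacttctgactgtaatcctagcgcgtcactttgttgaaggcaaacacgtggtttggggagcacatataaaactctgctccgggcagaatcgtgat
The Tgfb2 window held CAGAC at 221 and 204 bases before the start, and the Inhba window held neither motif. CAGAC or GTCTG was found in 42.2% and TGANTCA in 6.75% of 32851 promoter windows of this length, and the windows of Tgfb1, Tgfbr1 and Bmp4 had no match. Windows are reported for 5 of the 9 members, each ending next to the annotated gene start. None is reported here for Smad7, Skil, Thbs1 or Tgfb3. Of the genes that rose with Ad-Cre in EV, only Inhba therefore has a window here, and it does not stand for the others. GC content was 43.2% in the Inhba window, against 53.6% for Tgfb2, 63.2% for Bmp4, 74.8% for Tgfbr1 and 75.2% for Tgfb1. A match is a description of letters, and its absence says only that these letters are not in the window.

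In EV cells, 4 of the 9 genes, Smad7, Skil, Inhba and Thbs1, rose with Ad-Cre, where Nelfb fell. The rises were 3.50-fold for Smad7, 2.65-fold for Skil, 4.65-fold for Inhba and 5.67-fold for Thbs1. None of Tgfb1, Tgfb2, Tgfb3, Tgfbr1 and Bmp4 was called, although Tgfb2 was called lower with the replicate number as a block, as given below. Calls needed a Benjamini-Hochberg adjusted p below 0.05 together with a log2 fold change above 0.5 in size, which 1626 of 13805 genes (11.8%) met in EV, 5.84% higher and 5.94% lower. The median log2 fold change was 0.84 over the 9 genes and 0.00 over all genes tested.

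Smad7, on chromosome 18, encodes an inhibitory SMAD that blocks TGFBR1. Its level was 28.8 and 22.7 CPM in EV-GFP and 87.3 and 92.9 CPM in EV-Cre. The log2 fold change was 1.81 (SE 0.19, edgeR adjusted p = 8.08e-05), and the groups were far apart, with little spread within either. Skil, at chr3:31095058-31122577 (plus strand), encodes SnoN, a corepressor that binds SMAD complexes and is itself degraded on TGF-β signaling. Its level was 35.3 and 29.4 CPM in EV-GFP and 88.5 and 83.1 CPM in EV-Cre, with a log2 fold change of 1.41 (SE 0.18, edgeR adjusted p = 0.000274). The Skil groups did not overlap either.

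Inhba, the gene of the activin A subunit, was at 11.9 and 13.4 CPM in EV-GFP and at 49.6 and 68.1 CPM in EV-Cre. Its log2 fold change was 2.22 (SE 0.25, edgeR adjusted p = 0.000156), and every EV-Cre value lay above every EV-GFP value. Thbs1, at chr2:118111876-118127133 (plus strand), encodes thrombospondin-1, a matrix glycoprotein that can release active TGF-β from its latent form. It was at 328 and 334 CPM in EV-GFP and at 1178 and 2574 CPM in EV-Cre. The 2 EV-Cre libraries differed more from each other than for the other 3 genes, and the log2 fold change of 2.50 had a larger error (SE 0.47, edgeR adjusted p = 0.00413). In the fit of the EV groups alone, the Thbs1 change was 2.51 with an edgeR adjusted p = 0.0659 and was not called.

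**Figure D1:**
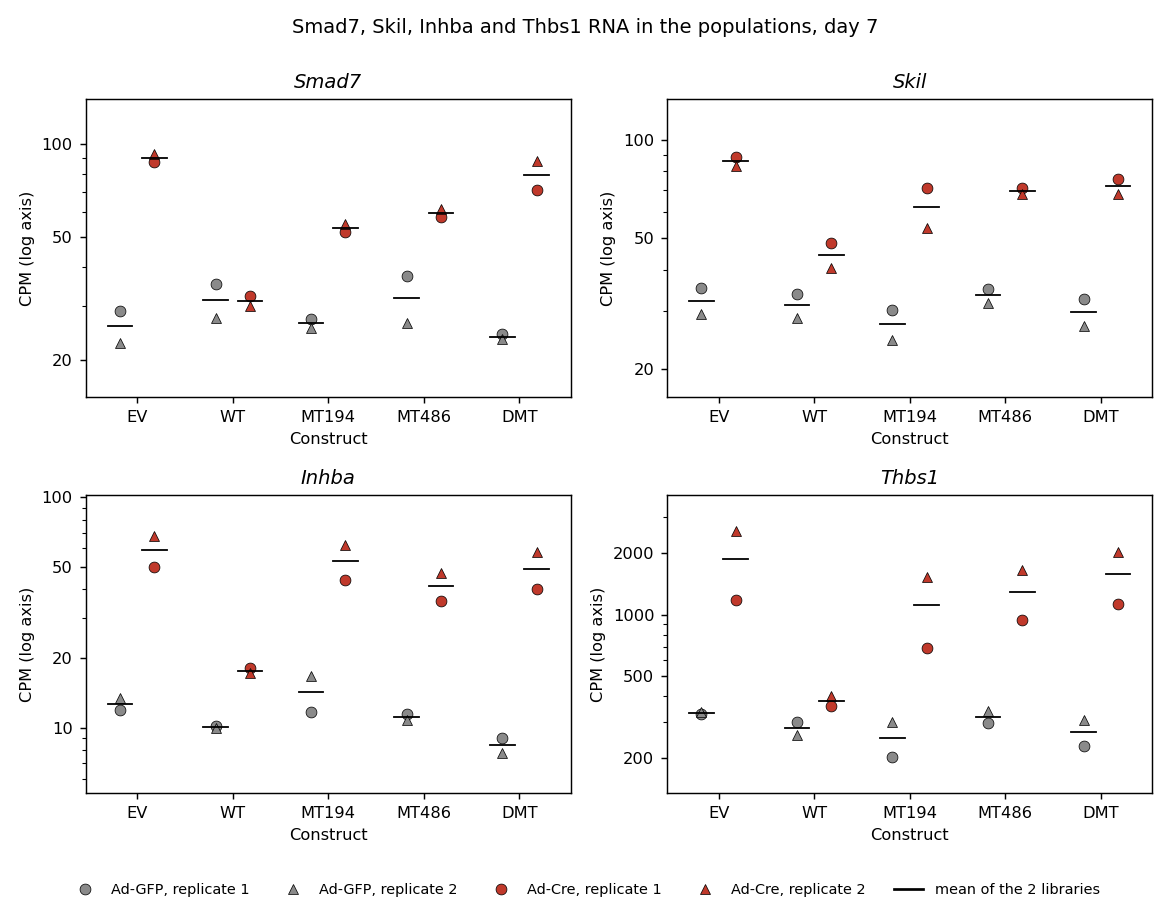
CPM of Smad7, Skil, Inhba and Thbs1 (y axes, log scale) in the 20 population libraries by construct (x axes), with circles and triangles for replicates 1 and 2, gray for Ad-GFP, red for Ad-Cre and a black line at the mean of 2 libraries. For Smad7, the Ad-Cre libraries of EV lie at 87.3 and 92.9 CPM and those of WT at 32.1 and 29.8 CPM, within the range of the Ad-GFP libraries.

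With WT NELFB added back, Ad-Cre left the 9 genes with no call in the fit without a replicate block. In that fit, 3 of 13805 genes were called (0.0217%): Acta2, Cnn1 and Sprr1a. With the block, which pairs the replicates, Skil and Inhba were called higher, as given below. Smad7 was at 35.3 and 27.3 CPM in WT-GFP and at 32.1 and 29.8 CPM in WT-Cre, so that the Ad-Cre values lay between the Ad-GFP values. Thbs1 was at 301 and 259.8 CPM in WT-GFP and at 358 and 401 CPM in WT-Cre. Their log2 fold changes were -0.01 (95% interval -0.41 to 0.38) for Smad7 and 0.44 (95% interval -0.53 to 1.40) for Thbs1.

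Skil and Inhba had smaller positive values in WT whose call depended on the fit. Skil was at 33.9 and 28.6 CPM in WT-GFP and at 48.6 and 40.6 CPM in WT-Cre. Inhba was at 10.2 and 10.0 CPM in WT-GFP and at 18.1 and 17.2 CPM in WT-Cre. The Ad-Cre libraries were the higher ones for both genes, without overlap. Thbs1, also higher with Ad-Cre, and Tgfb1, which was lower, did not overlap in WT either. The share of all genes without overlap is not given for the populations. With 2 libraries in a group, values can separate without any effect. Here and in the other population comparisons, a lack of overlap is therefore only a description. The log2 fold changes of 0.51 for Skil (edgeR adjusted p = 0.589) and 0.80 for Inhba (edgeR adjusted p = 0.496) were not called. Skil and Inhba were called with the replicate number as a block, at 0.51 (edgeR adjusted p = 0.00381) and 0.81 (edgeR adjusted p = 0.0164). The block called 426 of 13805 genes in WT. At an unadjusted p under 0.05, 2 of the 9 genes passed in WT, against 859 of all genes. DESeq2 called 0 of the 9, against 61 of all genes.

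The Cre effect in WT minus that in EV was tested as an interaction, in which 94 of 13805 genes were called (0.681%, with 0.283% below 0). Of the 9 genes, Smad7 was called, with a difference of -1.82 (SE 0.26, edgeR adjusted p = 0.00883). The differences for Skil, Inhba and Thbs1 were -0.89, -1.41 and -2.07, with edgeR adjusted p = 0.14, 0.101 and 0.188. All 4 differences were called with the replicate block, at edgeR adjusted p = 0.000145 for Skil, 0.00158 for Inhba and 0.0094 for Thbs1, and by DESeq2. Of all 13805 genes, the block called 1846 and DESeq2 420 in this interaction. The Smad7 difference was not called without EV-GFP replicate 2 (-1.66), without WT-Cre replicate 2 (-1.75) or without WT-GFP replicate 1 (-1.62), at edgeR adjusted p = 0.0573, 0.0728 and 0.0756, nor with the groups compared fitted alone (edgeR adjusted p = 0.0701).

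Smad7, Skil, Inhba and Thbs1 were called higher with Ad-Cre in MT194, MT486 and DMT, and the other 5 genes in none of them. With the replicate block, Tgfb2 was called lower in MT486 and DMT, as given below. The Cre effects of the mutants minus that in WT were not tested. In MT194, 582 of 13805 genes were called (4.22%, 1.88% higher and 2.33% lower), in MT486 334 (2.42%, 1.14% and 1.28%) and in DMT 1369 (9.92%, 4.58% and 5.34%). For Smad7, the log2 fold changes were 1.02 in MT194, 0.91 in MT486 and 1.74 in DMT, with edgeR adjusted p = 0.00693, 0.0199 and 0.000136. The libraries behind them were at 27.2 and 25.3 CPM in MT194-GFP against 51.7 and 55.0 in MT194-Cre. In MT486 they were at 37.3 and 26.3 CPM against 58.0 and 61.6 CPM, and in DMT at 24.2 and 23.3 CPM against 70.7 and 88.0 CPM. Ad-Cre and Ad-GFP libraries did not overlap in any of the 3 mutants, and the MT194-Cre and MT486-Cre libraries lay below both EV-Cre libraries.

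Skil was at 30.2 and 24.6 CPM in MT194-GFP and 71.2 and 53.7 CPM in MT194-Cre, and at 35.2 and 31.9 CPM in MT486-GFP and 71.0 and 68.2 CPM in MT486-Cre. In DMT it went from 32.6 and 27.0 CPM to 76.1 and 68.3 CPM. The log2 fold changes were 1.19, 1.05 and 1.28, with edgeR adjusted p = 0.00237, 0.00727 and 0.00059. Among the 4 called genes, Skil had the narrowest range of Cre effects over the mutants and EV. Inhba was at 11.7 and 16.8 CPM in MT194-GFP and at 43.9 and 61.8 CPM in MT194-Cre. It was at 11.4 and 10.8 CPM in MT486-GFP and at 35.4 and 46.7 CPM in MT486-Cre, and at 8.99 and 7.78 CPM in DMT-GFP and 39.9 and 57.9 CPM in DMT-Cre. The Inhba log2 fold changes were 1.89, 1.89 and 2.55, with edgeR adjusted p = 0.00102, 0.00186 and 0.000105, and no Ad-Cre library overlapped with the Ad-GFP libraries of its construct.

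Thbs1 was at 201 and 300.4 CPM in MT194-GFP and at 690.4 and 1539 CPM in MT194-Cre. It was at 295 and 339 CPM in MT486-GFP and at 945 and 1654 CPM in MT486-Cre, and at 229 and 306 CPM in DMT-GFP and 1130.5 and 2041 CPM in DMT-Cre. In each of the 3 mutants, replicate 2 with Ad-Cre was the highest Thbs1 library, as in EV. The log2 fold changes were 2.15, 2.04 and 2.57, with edgeR adjusted p = 0.0197, 0.0388 and 0.0042. Thbs1 was at 1.46 in MT194 without MT194-Cre replicate 2, and at 1.58 in MT486 without MT486-Cre replicate 2. The 4 calls in MT194 and the 4 in MT486 were absent when the groups compared were fitted alone. Without MT194-GFP replicate 1 or 2, 2 genes were called in MT194, and without MT486-Cre replicate 1 or 2 or MT486-GFP replicate 2, 1 gene was called in MT486. In DMT, 4 were called whichever of its libraries was left out.

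**Figure D2:**
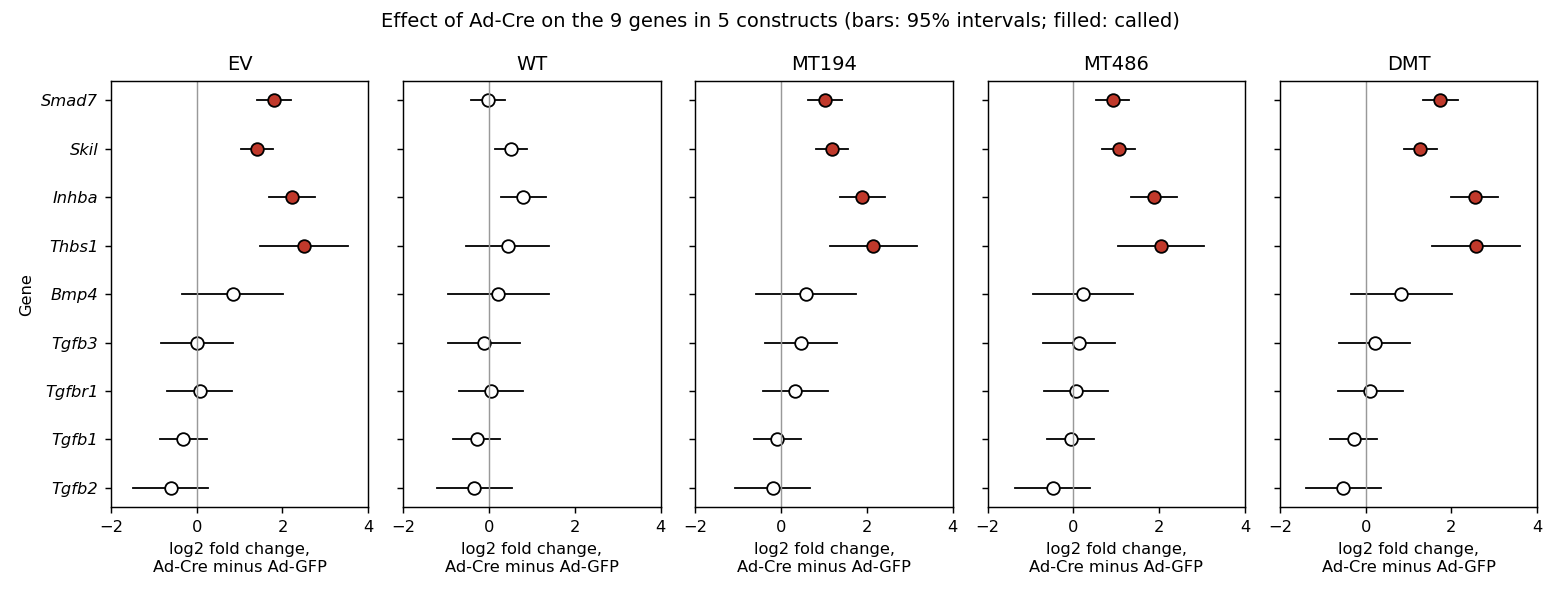
Log2 fold changes of Ad-Cre over Ad-GFP (x axes) for the 9 genes (y axis) in 5 constructs, with 95% intervals as bars and filled points for genes called. Smad7, Skil, Inhba and Thbs1 are filled in EV, MT194, MT486 and DMT and open in WT, and the intervals of the other 5 genes reach across 0 in every panel.

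The Cre effects of the mutants were set against that of EV as interactions, and no member was called for MT194, MT486 or DMT, where 1 of 13805 genes, Nelfb, was called in each (0.00724%). With the replicate block, 135, 370 and 1 genes were called for MT194, MT486 and DMT, and by DESeq2 19, 45 and 1. For Smad7 the difference was -0.78 (95% interval -1.34 to -0.23) in MT194, -0.89 (-1.45 to -0.34) in MT486 and -0.06 (-0.62 to 0.49) in DMT. At an unadjusted p under 0.05, 1 of the 9 genes passed in MT194, 1 in MT486 and 0 in DMT, against 444, 715 and 159 of 13805. DESeq2 called 0 of the 9 in each. With the replicate block, the Smad7 difference in MT486 was called at -0.89 (edgeR adjusted p = 0.0354). For Skil, Inhba and Thbs1, the differences from EV lay between -0.47 and 0.33 in the 3 mutants, and the interval of the lowest, Thbs1 in MT486, ran from -1.83 to 0.90.

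The Ad-Cre libraries were then compared between constructs, and these comparisons share the EV-Cre or WT-Cre libraries as reference. WT-Cre was lower than EV-Cre for the same 4 genes, where 1018 of 13805 genes were called (7.37%, 3.48% lower). The log2 differences were -1.54 for Smad7, -0.94 for Skil, -1.74 for Inhba and -2.31 for Thbs1, with edgeR adjusted p = 0.000618, 0.00701, 0.00164 and 0.0108. Without WT-Cre replicate 2, neither Skil (-0.80, edgeR adjusted p = 0.0958) nor Thbs1 (-2.37, edgeR adjusted p = 0.0916) was called, and Thbs1 was also not called without WT-Cre replicate 1 (-2.22) or EV-Cre replicate 2 (-1.64), or with the 2 groups fitted alone (-2.31, edgeR adjusted p = 0.0508). The other 5 genes lay between -0.73 and 0.07 in WT-Cre against EV-Cre and were not called.

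Between EV-Cre and MT194-Cre, MT486-Cre or DMT-Cre, 0 of the 9 genes were called (edgeR), where 31, 50 and 1 of 13805 genes were called (0.225%, 0.362% and 0.00724%). These counts were 858, 1236 and 48 with the replicate block and 210, 410 and 7 by DESeq2, and without a library 1 to 4, 1 to 7 and 1. At an unadjusted p under 0.05, 2, 2 and 0 of the 9 passed, against 1326, 1676 and 447 of all genes, and DESeq2 called 1, 0 and 0 of the 9. The gene nearest to a call was Smad7 in MT194-Cre, at 51.7 and 55.0 CPM against 87.3 and 92.9 CPM in EV-Cre. This log2 difference of -0.76 (95% interval -1.15 to -0.37, edgeR adjusted p = 0.127) was called by DESeq2 (adjusted p = 0.0118) and with the replicate block (edgeR adjusted p = 0.00397). With that block, Smad7 (-0.59, edgeR adjusted p = 0.0135) and Inhba (-0.52, edgeR adjusted p = 0.0342) were also called lower in MT486-Cre than in EV-Cre. For DMT-Cre, the log2 differences from EV-Cre were -0.18 for Smad7 (95% interval -0.57 to 0.20), -0.25 for Skil (-0.62 to 0.12), -0.27 for Inhba (-0.78 to 0.24) and -0.24 for Thbs1 (-1.21 to 0.72).

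Against WT-Cre, DMT-Cre was higher for all 4 genes, with log2 differences of 1.36 for Smad7, 0.69 for Skil, 1.47 for Inhba and 2.06 for Thbs1. Their edgeR adjusted p-values were 0.00226, 0.0491, 0.00742 and 0.0323, where 406 of 13805 genes were called (2.94%, 1.52% higher). With the 2 groups fitted alone 2 of the 9 genes were called, and without DMT-Cre replicate 2 or WT-Cre replicate 1 or 2 it was 1. MT194-Cre was called higher than WT-Cre for Inhba alone of the 9 genes, at 1.58 (edgeR adjusted p = 0.00702), where 191 genes were called (1.38%, 0.558% higher), and it was not called without MT194-Cre replicate 2 or either WT-Cre library. The replicate block added Smad7 (0.79, edgeR adjusted p = 0.00187) and Thbs1 (1.47, edgeR adjusted p = 0.00596), where it called 1510 of all genes. MT486-Cre had no member called against WT-Cre, where 15 genes were called (0.109%). Its differences of 0.95 for Smad7, 0.64 for Skil, 1.22 for Inhba and 1.78 for Thbs1 all passed an unadjusted p under 0.05. All were called by DESeq2 and with the replicate block, at edgeR adjusted p = 0.00135, 0.000236, 0.000525 and 0.0064. Of 13805 genes, 975 passed that unadjusted p, DESeq2 called 154 and the block 723.

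Without the replicate block, the 3 TGF-β ligand genes, Tgfbr1 and Bmp4 showed no call with Ad-Cre in any of the 5 constructs. Their 25 log2 fold changes ran from -0.61 to 0.84 with a median of 0.05. Tgfb1, at chr7:25687002-25705077 (plus strand), is the ligand most studied in wound repair and fibrosis. It was at 31.1 and 33.9 CPM in EV-GFP and at 24.1 and 28.4 CPM in EV-Cre, with a log2 fold change of -0.31 (95% interval -0.86 to 0.24). Its values were below 0 in all 5 constructs, from -0.31 to -0.06.

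Tgfb2 was at 297 and 449 CPM in EV-GFP and at 217 and 273 CPM in EV-Cre. Its log2 fold change of -0.61 (95% interval -1.48 to 0.27, edgeR adjusted p = 0.383) was not called, and replicate 2 exceeded replicate 1 in both groups while the groups did not overlap. With the replicate as a block, Tgfb2 was called lower in EV (-0.58, edgeR adjusted p = 0.00642), MT486 (-0.52, edgeR adjusted p = 0.0223) and DMT (-0.52, edgeR adjusted p = 0.0128). It was not called in WT or MT194, where its values without the block were -0.34 and -0.20. Of all genes tested, the block called 3502 in EV, 1673 in MT486 and 3191 in DMT, in either direction. In WT and MT194 the block called 426 and 2003.

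Tgfb3, at chr12:86056745-86079041 (minus strand), was at 109 and 157 CPM in EV-GFP and at 112 and 155 CPM in EV-Cre, with a log2 fold change of 0.00 (95% interval -0.83 to 0.84). Ttll5 overlaps Tgfb3 on the opposite strand, and as strand-aware counting is not stated, reads of the pair cannot be told apart. Tgfbr1, at chr4:47353222-47414931 (plus strand), was at 131 and 218 CPM in EV-GFP and at 156 and 210.0 CPM in EV-Cre, with a log2 fold change of 0.07 (95% interval -0.68 to 0.82). For both genes the EV-Cre values lay within the span of the EV-GFP values. Bmp4, at chr14:46383520-46390669 (minus strand) with Gm15217 on the opposite strand, was at 25.7 and 31.2 CPM in EV-GFP and at 32.9 and 68.8 CPM in EV-Cre. Its log2 fold change of 0.84 (95% interval -0.33 to 2.01, edgeR adjusted p = 0.364) was not called, and EV-Cre replicate 2 was the library farthest from the other 3. In DMT, where 25.7 and 54.8 CPM stood against 21.3 and 24.0 CPM, it was 0.83.

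**Figure D3:**
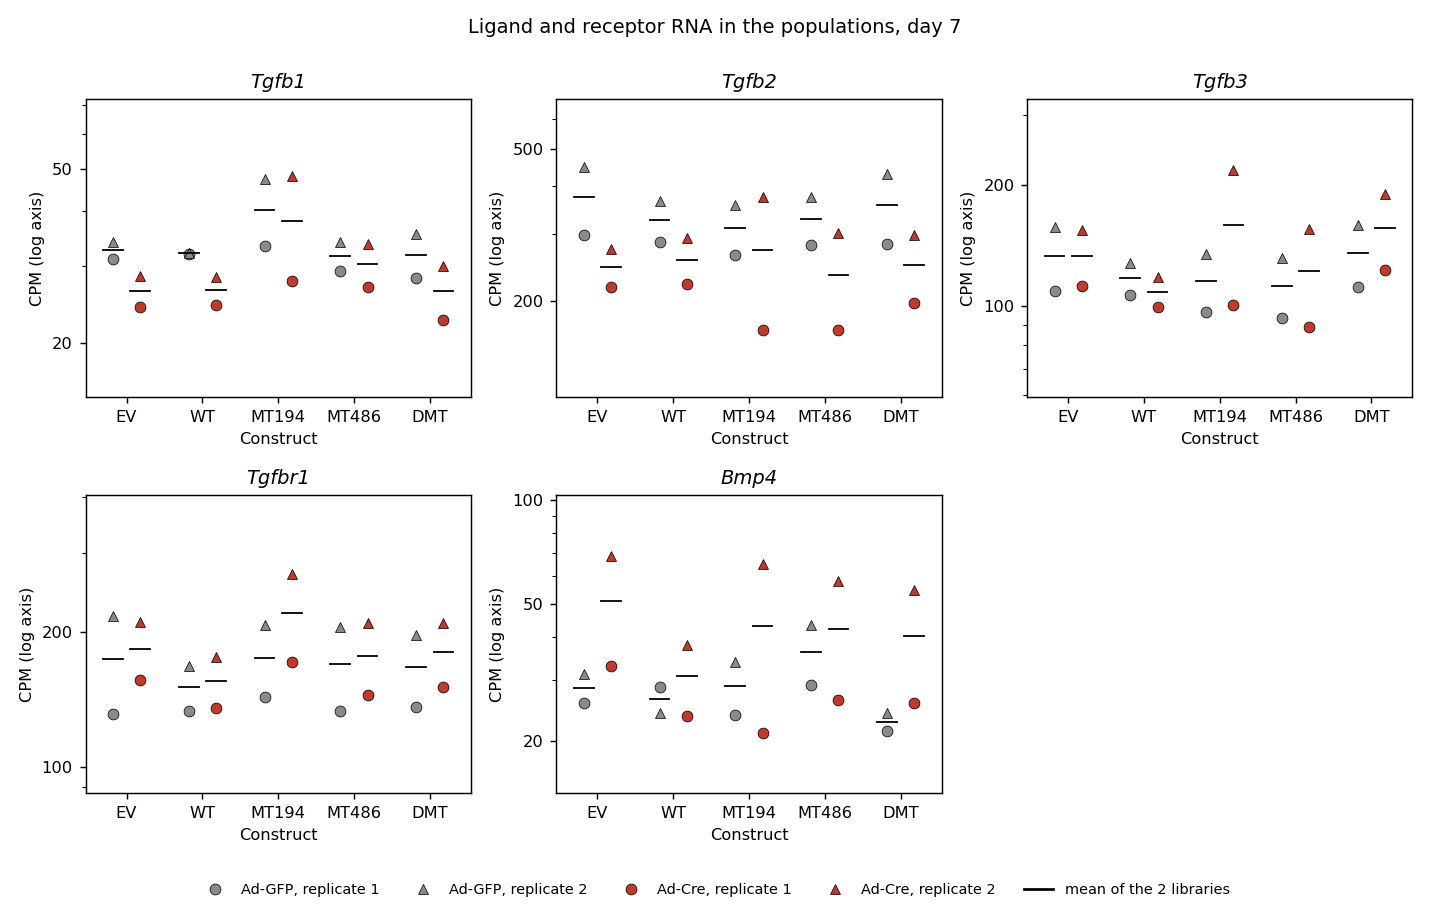
CPM (y axes, log scale) of Tgfb1, Tgfb2, Tgfb3, Tgfbr1 and Bmp4 in the 20 population libraries by construct (x axes), with circles and triangles for replicates 1 and 2, gray for Ad-GFP, red for Ad-Cre and a black line at the mean. Triangles lie above circles in 10 of 10 groups for Tgfb1, Tgfb2, Tgfb3 and Tgfbr1 and in 9 of 10 for Bmp4.

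The 2 replicates differed in a way that separated these genes from Smad7 and Skil. Replicate 2 was higher than replicate 1 in 10 of 10 groups for Tgfb1, Tgfb2, Tgfb3 and Tgfbr1, with median log2 differences of 0.28, 0.52, 0.50 and 0.53. It was higher in 9 of 10 groups for Thbs1 and Bmp4, in 6 for Inhba, in 4 for Smad7 and in 0 for Skil. The share of reads on no gene was also higher in replicate 2, in 9 of 10 groups and by a median of 3.68 percentage points, and its part in these differences was not tested.

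Across the 20 populations, the 4 genes that rose with Ad-Cre were compared in their profiles. Pearson's r of log2 CPM, given as a description over libraries that share batch and Cre treatment, was 0.94 between Smad7 and Skil, 0.92 between Smad7 and Inhba, 0.93 between Smad7 and Thbs1, 0.95 between Inhba and Thbs1, 0.91 between Skil and Inhba and 0.88 between Skil and Thbs1. The r between Tgfb3 and Tgfbr1 was also 0.88. Among 10601 genes whose mean reached 5 CPM, those most alike to Smad7 were Maff, Dusp1 and Tnfaip3 (r from 0.969 to 0.982), and those most alike to Inhba were Actn1, Ctgf and Myh9 (0.984 to 0.988). Rbpj, Fhdc1 and Lurap1l came nearest to Skil, and Hbegf and Ctgf to Thbs1. The nearest profiles to Tgfb2 were those of Pofut2, Colec12 and Cnpy2, to Tgfb3 those of Bmp1, Itm2c and Arel1, to Tgfbr1 those of Cers5, Rtn4 and Calu, to Bmp4 those of P3h2, Il1rap and Pappa, and to Tgfb1 those of Rnase4, Gpm6b and Mmp14.

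The other genes of the pathway were taken from 8 lists, and of their 113 members tested, 13 were called higher and 6 lower in EV after Ad-Cre, against 5.84% and 5.94% of all genes. Their median was 0.19 on the log2 scale, against 0.00 over all genes tested. Among 7 other SMADs, Smad6, the inhibitory SMAD of the BMP branch, was the gene called, at 61.4 ± 8.26 CPM (SD, n = 2) in EV-Cre against 32.7 ± 5.49 CPM in EV-GFP and a log2 fold change of 0.91 (edgeR adjusted p = 0.0103). The signal carriers Smad3 and Smad4 had log2 fold changes of 0.15 and 0.22 and were not called. Of 9 other ligands, Gdf15 was called higher, and of 12 other receptors Bmpr1b, both from levels under 2 CPM. Of 18 genes of the latent complex and its activation, Itgb6 was called higher and Fbn2, which encodes the microfibril protein fibrillin-2, lower (170.6 ± 58.5 CPM against 535 ± 225 CPM, log2 fold change -1.65, edgeR adjusted p = 0.0456). Of 12 extracellular antagonists and 13 intracellular regulators, 0 were called by edgeR. At an unadjusted p under 0.05, 3 and 4 passed, against 3657 of 13805 genes, and DESeq2 called 1 and 0, against 1997 of all genes. The regulator Pmepa1, an inhibitor of SMAD signaling, had an edgeR adjusted p = 0.0464 but a log2 fold change of 0.36, below the size required, and in MT194 it was called at 1.03 (edgeR adjusted p = 0.000296).

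Among 32 other TGF-β response genes, 8 were called higher and 3 lower in EV, against the same 5.84% and 5.94% of all genes, and the median over the list was 0.45 on the log2 scale. Ctgf, which encodes a matricellular growth factor, rose from 71.8 ± 2.42 to 643 ± 270 CPM (log2 fold change 3.16, edgeR adjusted p = 0.000795), and Acta2, the smooth muscle actin of myofibroblasts, from 16.9 ± 1.31 to 128.5 ± 7.52 CPM (2.93, edgeR adjusted p = 2.02e-05). Among the others called higher, and named after their values were seen, were Timp3, Cnn1, Tagln, Pdgfb and Ankrd1, at 2.90, 2.28, 2.22, 1.90 and 1.41. Tgfbi, a matrix protein gene first found as a TGF-β target, fell from 431 ± 129 to 87.4 ± 4.32 CPM (-2.30, edgeR adjusted p = 0.00122). Cdkn2b, the gene of the cell cycle inhibitor p15, fell by 1.88 and Tgm2, a protein crosslinking enzyme, by 1.14 on the log2 scale. The fibrillar collagen genes Col1a1 (-0.76) and Col3a1 (-0.91), singled out after their values were seen, were not called. The direction was therefore not uniform across the list. Of 10 BMP response genes, Hey1 was called higher, and Msx1 (5.29 ± 0.356 against 10.0 ± 1.62 CPM, -0.92, edgeR adjusted p = 0.0487) and Dlx5 lower.

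In the other constructs, 2 of the 32 response genes were called higher (against 0.0217% of all genes) and 0 lower with Ad-Cre in WT. There 5 passed an unadjusted p under 0.05, against 859 of 13805 genes, and DESeq2 called 3 higher and 0 lower, against 61 of all genes. The edgeR counts were 7 higher and 1 lower in MT194 (1.88% and 2.33% of all genes), 6 and 1 in MT486 (1.14% and 1.28%) and 8 and 3 in DMT (4.58% and 5.34%). The gene called lower in MT194 was Cdkn2b (-1.73, edgeR adjusted p = 0.00718). The 2 in WT were Acta2 (1.77, edgeR adjusted p = 0.0147) and Cnn1 (1.84, edgeR adjusted p = 0.0383), both contractile genes. Neither was called when any library of the WT groups was left out (edgeR adjusted p from 0.104 to 0.870), and with the groups fitted alone Cnn1 was not called (edgeR adjusted p = 0.117). Ctgf had log2 fold changes of 1.12 in WT, 3.04 in MT194, 3.21 in MT486 and 3.61 in DMT and was called in the mutants. Acta2, Tagln and Cnn1 also stand in the list of smooth muscle markers, whose summed level was 145 and 131 CPM in EV-GFP, 393 and 361 CPM in EV-Cre and 229.5 and 223 CPM in WT-Cre. The most abundant of these 6 markers was Smtn, and the defining markers Myh11 and Des were below 1 CPM. Whether the smooth muscle genes as a group bear on the other changes was not tested.

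**Figure D4:**
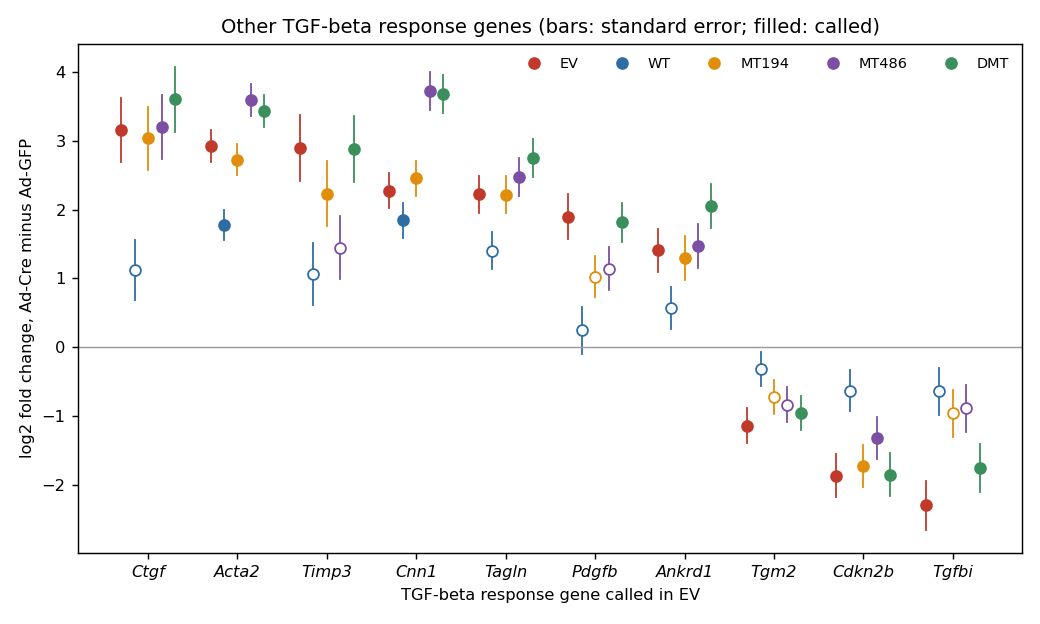
Log2 fold changes of Ad-Cre over Ad-GFP (y axis) for 10 of the 11 TGF-β response genes called in EV (x axis), with 1 color for each construct, standard errors as bars and filled points for genes called. Acta2 and Cnn1 are filled in all 5 constructs, and WT shows the smallest positive value for the genes that rose in EV and the smallest decrease for Tgm2, Cdkn2b and Tgfbi.

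In the stable clones, 0 of the 9 genes passed the edgeR test in each of the 5 comparisons. Of 13223 genes tested, 0 (0%) were called for Δ-C60 against WT(N48), 384 (2.9%, 1.28% higher and 1.63% lower) for MT194 against WT, 0 (0%) for MT486 against WT, 46 (0.348%, 0.197% higher) for MT486 against MT194 and 278 (2.1%, 1.17% higher and 0.93% lower) for WT(N48) against WT. At an unadjusted p under 0.05, 3, 4, 0, 5 and 4 of the 9 genes passed in these comparisons, against 1540, 2796, 1176, 2473 and 2775 of 13223. DESeq2 called 3, 1, 0, 1 and 2 of the 9, against 230, 1170, 156, 800 and 1169 of all genes. Thbs1 was the member with the highest level per length in every clone group.

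Δ-C60 was compared with WT(N48), the clones with the same vector. Tgfb1 was at 23.0, 18.7 and 16.3 CPM in Δ-C60 clones and at 49.0, 60.3 and 34.9 CPM in WT(N48) clones, so each Δ-C60 clone lay below each WT(N48) clone. The log2 difference was -1.31 (95% interval -1.88 to -0.75, edgeR adjusted p = 0.183), and DESeq2 called it (adjusted p = 0.00134). Skil was at 155, 172 and 198 CPM against 122, 91.3 and 46.7 CPM, and this difference of 1.01 (edgeR adjusted p = 0.236) was also called by DESeq2 (adjusted p = 0.0493). Thbs1 was at 2443, 2731 and 15069 CPM against 2219.7, 1459 and 1239 CPM, a difference of 2.04 (edgeR adjusted p = 0.254) that DESeq2 called (adjusted p = 0.0179). For these 3 genes the groups did not overlap, as for 11.5% of all genes tested. Δ-C60 clone 3 stood far above the other clones for Thbs1, and without it the Thbs1 difference was 0.66 (edgeR adjusted p = 0.559), against -1.21 for Tgfb1 and 0.91 for Skil.

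Smad7 and Inhba varied within these groups. WT(N48) clone 3 held the lowest values of its group, 27.3 CPM of Smad7 and 11.5 CPM of Inhba, against 110.5 and 77.7 CPM and 99.3 and 49.8 CPM in the other two. The same clone had the lowest Nelfb of the group, 56.3 CPM against 241 and 127 CPM, and the lowest sum of smooth muscle markers, 137 CPM against 2361.5 and 1213 CPM. Whether either bears on these genes was not tested. In Δ-C60, Smad7 was at 70.7, 169 and 125 CPM and Inhba at 48.7, 115.5 and 226 CPM, overlapping with WT(N48). Bmp4 was at 1.36, 5.06 and 119 CPM in Δ-C60 and at 24.8, 33.2 and 31.9 CPM in WT(N48). Its log2 difference of 0.47 turned to -3.22 without Δ-C60 clone 3, and neither value was called. That clone also held the highest sum of smooth muscle markers, 5468 CPM, and of epithelial markers, 102 CPM, mostly Krt19.

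Every MT194 clone lay above every WT clone for Tgfb2, Tgfb3, Tgfbr1 and Thbs1 and below every WT clone for Skil and Inhba, where 33.6% of all genes tested did not overlap. None of the 6 genes was called by edgeR. Tgfb3 was at 130.4, 205 and 214 CPM in MT194 and at 46.6, 79.0 and 42.0 CPM in WT clones, with a log2 difference of 1.71 (95% interval 0.77 to 2.66, edgeR adjusted p = 0.0541). Tgfb2 was at 115, 185 and 176 CPM against 71.3, 48 and 62.6 CPM (1.39, edgeR adjusted p = 0.194), and Thbs1 at 859.6, 1110.4 and 1719.8 CPM against 609, 387.5 and 485.5 CPM (1.32, edgeR adjusted p = 0.231). Tgfbr1 was at 317, 265 and 287 CPM against 237, 147 and 186 CPM (0.61, edgeR adjusted p = 0.225). Skil was at 46.2, 52.0 and 50.8 CPM in MT194 clones against 60.8, 72.6 and 74.4 CPM (-0.48, edgeR adjusted p = 0.364), and Inhba at 13.1, 7.92 and 21.3 CPM against 26.0, 25.3 and 31.3 CPM (-0.96, edgeR adjusted p = 0.482). In the MT194 populations Skil and Inhba had risen with Ad-Cre, in a comparison with another reference. Tgfb2, Tgfb3 and Thbs1 were called when the 2 groups were fitted alone, and Tgfb3 by DESeq2. Without the WT clones of low Nelfb, the differences were 1.20 for Tgfb3, 1.71 for Tgfb2, 0.97 for Tgfbr1, 1.65 for Thbs1, -0.56 for Skil and -0.85 for Inhba. As the groups did not overlap for these 6 genes, leaving out WT clones could not test the direction.

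Against MT194 clones, MT486 clones were lower for Tgfb2, at 49.3, 43.5 and 61.5 CPM (-1.63, edgeR adjusted p = 0.168), and for Tgfbr1, at 159, 169 and 176 CPM (-0.78, edgeR adjusted p = 0.158). Tgfb3 was also lower in each MT486 clone, at 59.7, 64.1 and 125 CPM (-1.14, edgeR adjusted p = 0.185). Skil lay the other way, at 106.5, 102 and 61.8 CPM in MT486 clones (0.86, edgeR adjusted p = 0.143), as did Inhba, at 62.6, 58.8 and 15.8 CPM (1.70, edgeR adjusted p = 0.242). None of the 5 genes was called by edgeR over all clones. DESeq2 called Tgfb2 (adjusted p = 0.0422), and with the 2 groups fitted alone edgeR called Tgfb2 (adjusted p = 0.0362) and Tgfbr1 (adjusted p = 0.0451). The groups overlapped for Inhba and not for the other 4, in a comparison where 29.8% of all genes tested did not overlap. Thbs1 (843, 675.5 and 381 CPM) and Tgfb1 (47.0, 43.7 and 36.2 CPM) were also lower in each MT486 clone than in any MT194 clone. Between MT486 and WT clones, the 9 log2 differences ran from -0.24 to 0.81, and without the WT clones of low Nelfb from -0.66 to 0.86. WT(N48) clones exceeded WT clones for Tgfb3, at 149, 109 and 145 CPM (1.26, edgeR adjusted p = 0.124), for Thbs1 (1.73, edgeR adjusted p = 0.132) and for Tgfb2 (1.45, edgeR adjusted p = 0.178). Tgfbr1 was lower in WT(N48) clones, at 97.0, 100.1 and 139.5 CPM (-0.76, edgeR adjusted p = 0.142), and Bmp4 higher, at 24.8, 33.2 and 31.9 CPM against 2.68, 10.2 and 1.83 CPM (2.60, edgeR adjusted p = 0.254). For these 5 genes the groups did not overlap, as for 32% of all genes tested. Without the WT clones of low Nelfb, the differences were 0.75 for Tgfb3, 2.06 for Thbs1, 1.77 for Tgfb2, -0.40 for Tgfbr1 and 1.54 for Bmp4.

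**Figure D5:**
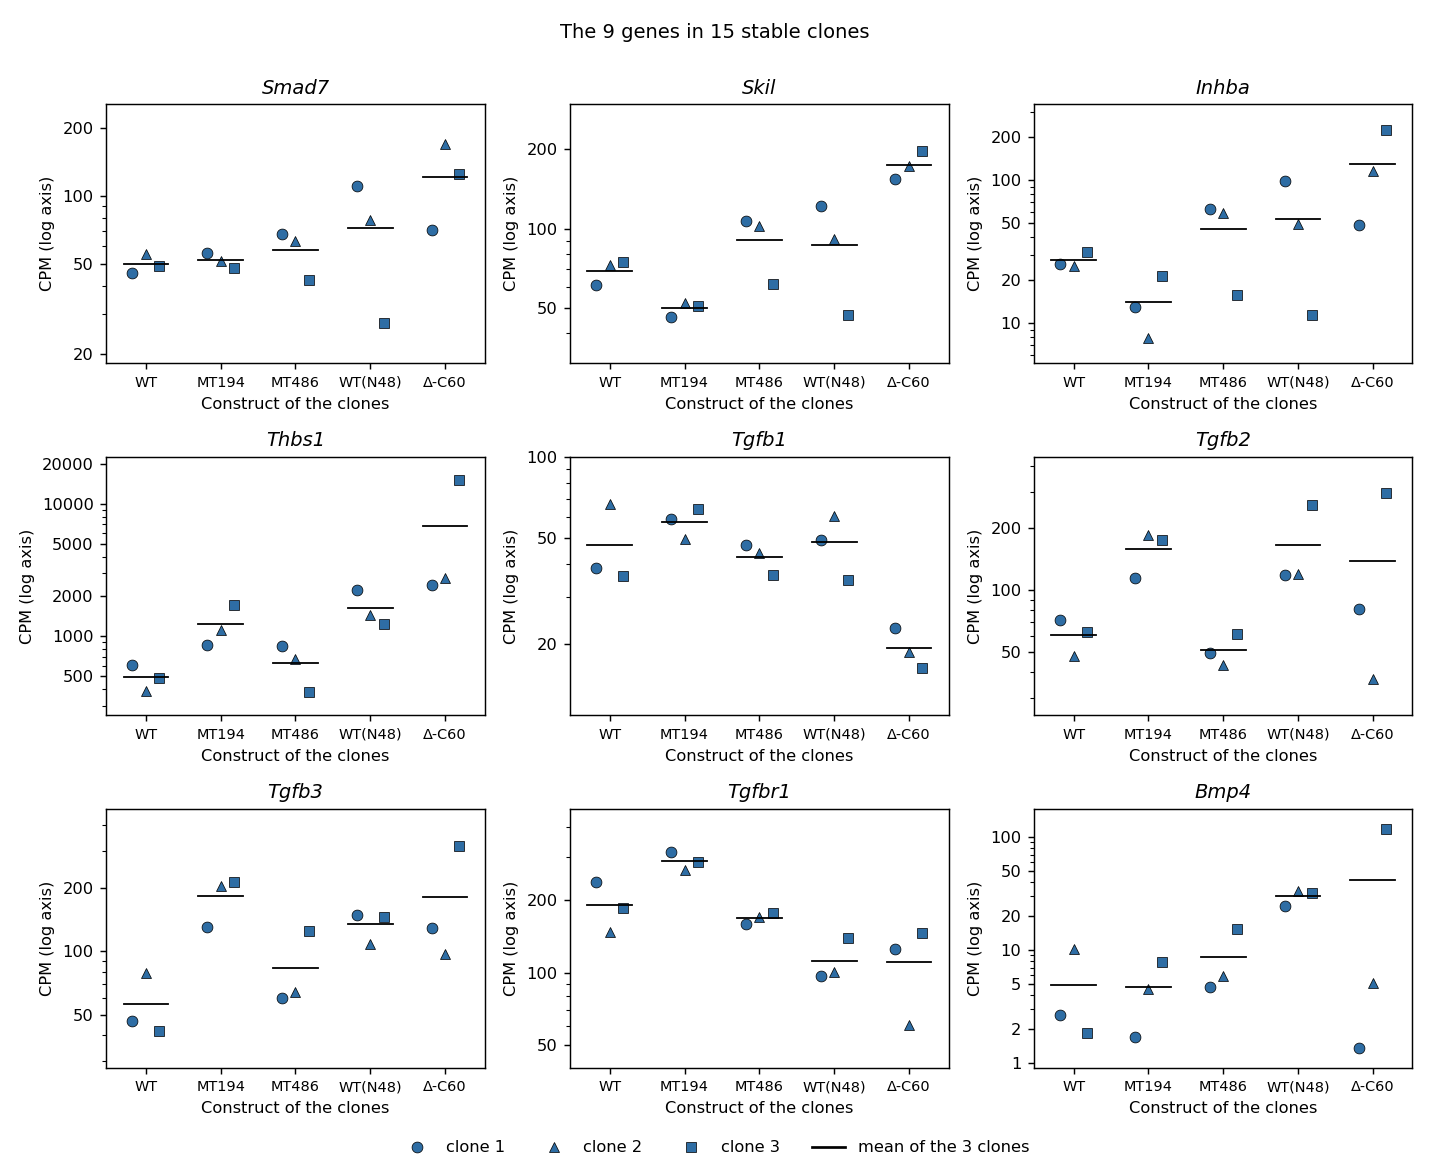
CPM (y axes, log scale) of the 9 genes in 15 stable clones by construct (x axes), with a symbol for each clone and a black line at the mean of 3 clones. Δ-C60 clone 3 lies apart for Thbs1 (15069 CPM) and Bmp4 (119 CPM), and the 3 Δ-C60 clones lie lowest for Tgfb1.

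The other genes of the pathway were tested in the clones as well. In MT194 against WT clones, 4 of 110 other pathway genes were called higher and 1 lower, against 1.28% and 1.63% of all genes. DESeq2 called 12 of the 110 higher and 1 lower, against 1170 of 13223 genes. Smad6 (a mean of 105 against 55.6 CPM, n = 3, log2 difference 0.92, edgeR adjusted p = 0.042), Ltbp2 of the latent TGF-β binding proteins (1.72, edgeR adjusted p = 0.0488), Cdkn2b (2.26, edgeR adjusted p = 0.048) and Timp3 (2.20, edgeR adjusted p = 0.0487) were higher, and the cytokine gene Il11 was lower (-2.21, edgeR adjusted p = 0.0475). None of the 5 was called without any 1 of the WT clones or without MT194 clone 1, 1 was called without MT194 clone 2 and 2 without MT194 clone 3. Without both WT clones of low Nelfb, the values were 0.63 for Smad6, 1.39 for Ltbp2, 2.56 for Cdkn2b, 2.36 for Timp3 and -2.86 for Il11. In MT486 against MT194 clones, Itgb6, a subunit of an integrin that activates TGF-β, was the gene called (3.86, edgeR adjusted p = 0.0398). Of all genes, 0.197% were called higher. DESeq2 called 3 of the 110 higher and 5 lower, against 800 of all genes. Itgb6 was not called without any 1 of the MT194 clones or without MT486 clone 1 or 2. In WT(N48) against WT clones, Fbn1 (1.52) and the BMP antagonist gene Nbl1 (1.41) were called higher and Ankrd1 (-3.82) and Il11 (-2.77) lower. Of all genes, 1.17% were called higher and 0.93% lower. DESeq2 called 16 of the 110 higher and 6 lower, against 1169 of all genes. None of the 4 was called without any 1 of the WT clones or without WT(N48) clone 1 or 2, and without both WT clones of low Nelfb the values were 1.21 for Fbn1, 1.30 for Nbl1, -3.50 for Ankrd1 and -3.43 for Il11. In Δ-C60 against WT(N48) and in MT486 against WT clones, 0 of 110 were called by edgeR. At an unadjusted p under 0.05, 26 and 18 of them passed, against 1540 and 1176 of 13223 genes. DESeq2 called 3 higher and 1 lower in the first and 5 higher and 1 lower in the second, against 230 and 156 of all genes.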

How the data were processed

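The authors sequenced poly(A) RNA from a stranded kit as 50-base single reads, aligned them to mm10 with bowtie2 and SAMtools, skipped alignments with a mapping quality under 30 and counted reads per gene with HTSeq. Versions, annotation and the strand setting of the counting are not given in the sources used here. The deposited values are raw counts, 1 file per library. Rows for reads on no gene (9.14% to 21.3% of reads) and ambiguous reads (0.911% to 1.13%) were left out.

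From these counts, edgeR 4.0.16 (R 4.3.3) gave TMM-normalized CPM and the tests (filterByExpr, robust quasi-likelihood, 1 mean per group), separately for the populations (13805 genes) and the clones (13223), in 25 comparisons with Benjamini-Hochberg adjustment over all genes tested. SE is the absolute log2 fold change divided by the square root of F, and 95% intervals use the t distribution of the fit. RPKM divides by the exon union. Alternatives were DESeq2 1.42.0, its size factors, no filter, the replicate number as a block, the compared groups alone, other thresholds and each library left out. The fitting code was tested on simulated counts with known changes. For the Cre effect in EV, edgeR recovered 12%, 58% and 98% of changes of 1.5-, 2- and 4-fold. For MT194 against WT clones it recovered 2%, 18% and 74%. The absence of a call, above all in the clones, therefore does not show the absence of a change.

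Replicates of the populations pair: deviations from group means of same-numbered libraries correlated in 45 of 45 pairs of groups (r from 0.42 to 0.73), and the study's text describes independent experiments. The 9 genes and the pathway lists were chosen with earlier results of these data known. Named from the lists were up to 3 genes per direction with the largest change among those called in EV or in a clone comparison, with at least 50 reads on average and groups that did not overlap. Other called genes were named after their values were seen. Some genes the rule takes in are not reported here. The intervals cover the spread between these libraries.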

Additional observations from a re-analysis of the deposited data

Results flagged for a closer look

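The Cre effect on Smad7 differed between constructs by a test of the difference itself. It was 1.81 in EV and -0.01 in WT, a difference of -1.82 on the log2 scale (SE 0.26, edgeR quasi-likelihood interaction, Benjamini-Hochberg adjusted p = 0.00883 over 13805 genes). Smad7 was higher with Ad-Cre in 2 of 2 replicates of EV, and in WT the Ad-Cre values lay between the Ad-GFP values. The difference was not called with the groups compared fitted alone (edgeR adjusted p = 0.0701), or without EV-GFP replicate 2 (0.0573), WT-Cre replicate 2 (0.0728) or WT-GFP replicate 1 (0.0756).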

How the results depend on the processing

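Of the 913 values of single genes computed under an alternative, 795 kept their direction and their side of the threshold, 50 fell short of it, 42 newly passed it and 26 changed sign, and the cause was not tested. With the replicate number as a block, which pairs the populations, 2 members were called for the Cre effect in WT, 1 for MT194-Cre and 2 for MT486-Cre against EV-Cre, 4 for the Cre effect in WT minus EV, 1 for MT486 minus EV, 3 for MT194-Cre and 4 for MT486-Cre against WT-Cre. Tgfb2 was added in EV, MT486 and DMT, and the block changed no other member's call in the population comparisons that include Ad-Cre libraries. For WT, MT194, MT486 and DMT against EV under Ad-GFP, the members' values were not taken under alternatives. There the block called 0, 16, 22 and 8 genes. The numbers of the clones share only a number (3 of 30 same-number pairs correlated over 0.1, and 3 of 15 libraries correlated best with their own number). There the block called 52 genes in place of 384 for MT194 against WT, 7 for MT486 against MT194 and 102 for WT(N48) against WT, none of the 5, 1 and 4 pathway genes named in these comparisons was called, and Bmp4 in Δ-C60 against WT(N48) was at -0.70. DESeq2 called 1 member for MT194-Cre against EV-Cre, 4 for WT minus EV, 3 for MT194-Cre and 4 for MT486-Cre against WT-Cre, 3 for Δ-C60 against WT(N48) clones, 1 for MT194 and 2 for WT(N48) against WT clones and 1 for MT486 against MT194 clones. With the compared groups alone, 0 were called for the Cre effect in MT194, in MT486, for WT minus EV and for MT194-Cre against WT-Cre, 2 for DMT-Cre against WT-Cre, Thbs1 lost its call in EV and in WT-Cre against EV-Cre, and 3, 2 and 2 for MT194 against WT, MT486 against MT194 and WT(N48) against WT clones. Without a filter on low counts, Tgfb3 in EV was at -0.01 and Skil in DMT-Cre against WT-Cre lost its call, as did the 5 pathway genes named in MT194 against WT clones (edgeR adjusted p from 0.0539 to 0.0709) and Ankrd1 in WT(N48) against WT clones. With the groups alone, Timp3 in the first and Nbl1 and Ankrd1 in the second were not called.

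With each replicate left out in turn, the members called ranged from 2 to 4 for the Cre effect in MT194, 1 to 3 in MT486, 2 to 4 for WT-Cre against EV-Cre, 0 to 1 for WT minus EV, 0 to 1 for MT194-Cre and 1 to 3 for DMT-Cre against WT-Cre. Values that changed sign there, none of them called, ranged from -0.25 to 0.28 for Tgfb3 and -0.25 to 0.48 for Tgfbr1 in EV, -0.19 to 0.18 for Smad7 in WT and -0.89 to 0.27 for Tgfb2 in MT194. Against EV-Cre the ranges were -0.42 to 0.09 for Inhba in MT194-Cre, -0.99 to 0.14 for Thbs1 in MT486-Cre and -0.73 to 0.43 for Thbs1 in DMT-Cre. For the Cre effect minus that in EV they were -1.04 to 0.32 for Thbs1 in MT194, -0.92 to 0.20 for Thbs1 in MT486, and in DMT -0.24 to 0.10 for Smad7, -0.27 to 0.01 for Skil and -0.42 to 0.74 for Thbs1. Bmp4 in Δ-C60 against WT(N48) clones ranged from -3.22 to 1.04.

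Counts over all genes moved more. For the Cre effects in EV, WT, MT194, MT486 and DMT, 1626, 3, 582, 334 and 1369 genes were called, against 3502, 426, 2003, 1673 and 3191 with the block, 239, 1, 0, 5 and 489 with the compared groups alone and 1997, 61, 901, 688 and 1755 by DESeq2. Leaving out a library gave 734 to 1060, 0 to 1, 189 to 294, 76 to 128 and 518 to 791. The WT minus EV difference had 94 calls, against 1846, 10 and 420 and 5 to 40 without a library, WT-Cre against EV-Cre 1018, against 3175 and 371 with the block and the groups alone, and MT194-Cre, MT486-Cre and DMT-Cre against WT-Cre 191, 15 and 406, against 1510, 723 and 1965 with the block and 450, 154 and 717 by DESeq2. In the clones DESeq2 called 230, 1170, 156, 800 and 1169 genes in place of 0, 384, 0, 46 and 278, the groups alone gave 0, 536, 69, 203 and 567, and leaving out a clone gave 0 to 313, 0 to 346, 0 to 14, 0 to 200 and 2 to 606. Leaving out a library gave 173 to 669 for WT-Cre against EV-Cre and 18 to 83, 0 to 1 and 62 to 135 for MT194-Cre, MT486-Cre and DMT-Cre against WT-Cre. The 2 libraries of a population group and the spread between clones limit the precision of each value.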
